A study of Mus musculus with 6 samples.

Results

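Glycolysis, glucose uptake and pyruvate fate were described here through 32 mouse genes that were listed by name: glucose transporters, the enzymes of each glycolytic step, the enzymes that set the level of fructose 2,6-bisphosphate, lactate dehydrogenases, lactate transporters, pyruvate dehydrogenase kinases and the E1 subunits of pyruvate dehydrogenase. All 32 were found among the 43629 gene IDs of the deposited tables, and all 32 had enough counts to be tested. The cells were primary dermal fibroblasts isolated from newborn mouse skin, used at passage 1 after 6 days of proliferation in culture. The caNrf2 group was 3 libraries of the genotype Col1a2Cre-caNrf2, in which cells with Cre carry a constitutively active Nrf2. The ctrl group was 3 libraries of the genotype Col1a2Cre-wt, with Cre and without the constitutively active Nrf2. Both groups therefore carried the Cre transgene, and both had a mixed background of 50% C57Bl/6 and 50% FVB/N. The submitters' text gives 3 mice per group, so that each library was taken as a separate mouse. The active Nrf2 depended on Cre expressed in fibroblasts, and the share of cells that had recombined was not measured.

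Glycolysis splits glucose into pyruvate and yields ATP, NADH and precursors for serine, glycerol and nucleotide synthesis. Pyruvate is then reduced to lactate and exported, oxidised in mitochondria through pyruvate dehydrogenase, or carboxylated to oxaloacetate. Nrf2, encoded by Nfe2l2, is a transcription factor that drives antioxidant and detoxification genes from a DNA element called the antioxidant response element, and in other cells it has also been linked to genes of glucose metabolism.

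The libraries held between 30168400 and 45164208 estimated counts, and levels are given as CPM, the counts scaled by library size, or as TPM, which is also scaled by transcript length, where genes are compared with each other. Nfe2l2 had 352, 429.9 and 358 CPM in the caNrf2 libraries, against 113, 103 and 112 CPM in the ctrl libraries, so that the libraries matched their labels. The fibroblast markers were abundant in all 6 libraries, with a summed level of 27820 to 32866 CPM in caNrf2 and 37459 to 53590 CPM in ctrl. Of these 10 markers, Pdgfra and Thy1 were called higher in caNrf2, and Col1a1, Col1a2, Col3a1 and Pdgfrb were called lower. The 3 collagen genes were the most abundant of them, with Col1a1 at 11967 ± 762 CPM in caNrf2 and 17603 ± 3234 CPM in ctrl. Vim was uncalled, at 3188 ± 224 CPM in caNrf2 and 3106 ± 214 CPM in ctrl (SD, n = 3 each). All 18 leukocyte markers were called higher in caNrf2, with a summed level of 175 to 211 CPM in caNrf2 and 24.5 to 68.9 CPM in ctrl. Of 18 tested skeletal muscle markers, 14 were called higher, with a summed level of 294 to 393 CPM in caNrf2 and 198 to 221 CPM in ctrl. The libraries were made from whole cultures, in which fewer cells of a type and less RNA per cell cannot be told apart. The part of RNA from leukocytes, muscle and other cell types in the results below was not tested.

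Slc2a1, Gpi1, Pfkfb4, Aldoa, Gapdh, Pgk1, Pgam1, Eno1 and Pkm rose in caNrf2 fibroblasts, as did Hk1, Pfkl, Pfkfb3 and Ldha, whose calls were lost without single libraries. Of the 32 genes, 13 rose, 2 fell and 17 did not pass the test (edgeR quasi-likelihood test, Benjamini-Hochberg adjusted over all genes). Of all 15341 genes tested, 21.5% were called in either direction, 12.5% higher and 9.03% lower. The median log2 fold change over the 32 genes was 0.23, against -0.0031 over all genes tested. A value above 0 was found for 22 of the 32, and for 49.6% of all genes tested. The groups did not overlap for 16 genes that were higher in caNrf2 and 3 that were lower, where 42.1% of all tested genes were separated, 22% higher and 20.1% lower. Added over the 32 genes, the level was 9534 ± 701 TPM in caNrf2 and 6477 ± 685 TPM in ctrl (SD, n = 3 each). This sum weighs the most abundant genes most. Gapdh alone had 2461 ± 181 TPM in caNrf2 and 1686 ± 181 TPM in ctrl, and Pkm 1698 ± 123 TPM in caNrf2 and 967 ± 108 TPM in ctrl. The 2 genes that fell, Aldoc and Eno2, encode minor forms of enzymes whose major forms rose.

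**Figure D1:**
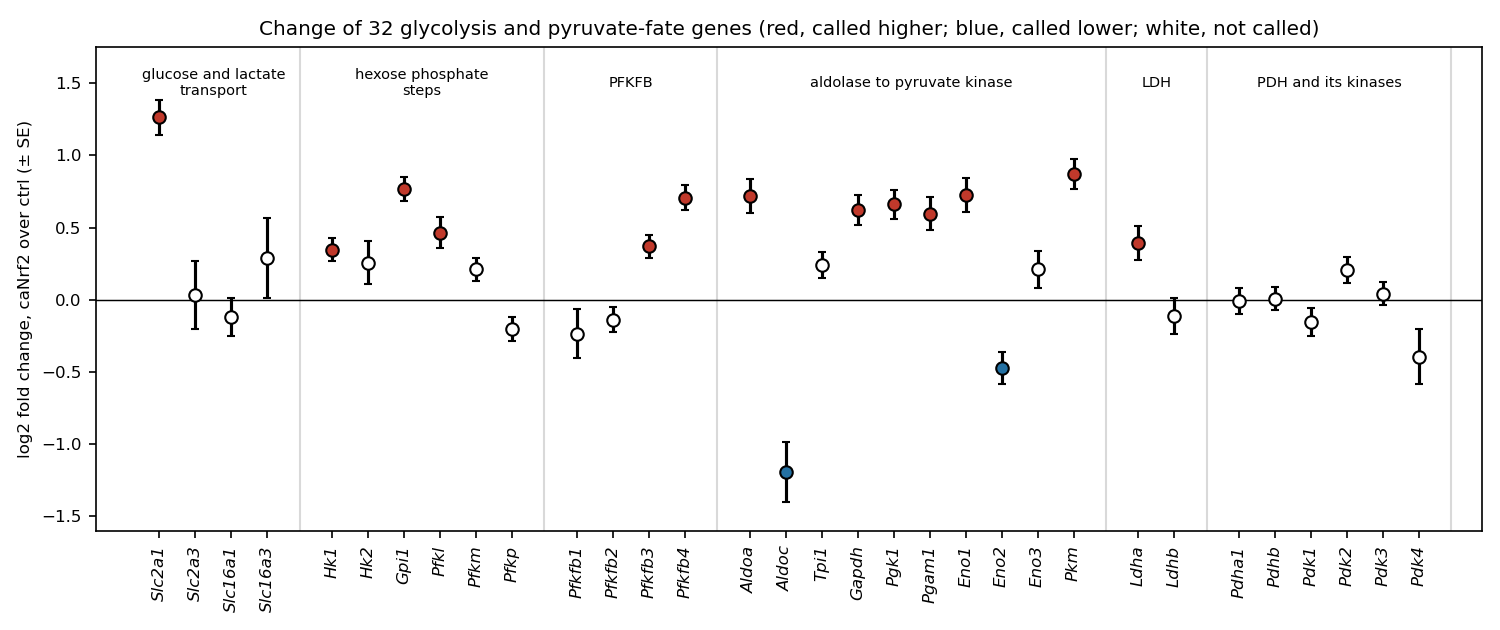
Log2 fold change of caNrf2 over ctrl for the 32 genes, grouped by their place in the pathway, with bars showing the standard error of the fit and filled points marking an adjusted p under 0.05. The points lie above 0 from Slc2a1 at 1.26 through most major enzymes to Pkm at 0.87 and Ldha at 0.39, and lie near 0 for Pdha1 and Pdhb.

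Glucose entry had the largest change among the 32 genes. Slc2a1 encodes GLUT1, the main glucose transporter of proliferating fibroblasts, and lies at chr4:119108711-119137330 on the plus strand (GRCm38). It had 145, 157 and 151 CPM in the caNrf2 libraries, against 51.7, 73.4 and 63.3 CPM in the ctrl libraries. Each caNrf2 library was far above each ctrl library. Slc2a1 rose 2.4-fold (log2 fold change 1.26 ± 0.12 SE, edgeR adjusted p = 0.00016). Slc2a3, which encodes the high-affinity transporter GLUT3, was at a low level of 2.26 ± 0.478 CPM in caNrf2 and 2.21 ± 0.486 CPM in ctrl (SD, n = 3 each). Its groups overlapped, and its log2 fold change was 0.03 ± 0.24 SE. Per length, Slc2a1 made up 99.1 ± 0.285% of the TPM of this pair in caNrf2 and 98 ± 0.731% in ctrl.

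Hexokinases trap glucose in the cell as glucose 6-phosphate. Hk1, the form attached to mitochondria in most tissues, had 116, 123 and 114 CPM in the caNrf2 libraries, against 86.6, 99.1 and 92.1 CPM in the ctrl libraries. The groups did not overlap, and Hk1 rose 1.27-fold (edgeR adjusted p = 0.014). The call was lost without ctrl library 3 (adjusted p = 0.054) or without caNrf2 library 2 (adjusted p = 0.066). Hk2, the inducible form, had 28.4, 35.4 and 36.2 CPM in the caNrf2 libraries, against 22.9, 33.9 and 26.8 CPM in the ctrl libraries. Its groups overlapped, and it did not pass the test (1.2-fold, edgeR adjusted p = 0.26). Hk1 held 84 ± 1.33% of the TPM of the pair in caNrf2 and 83.7 ± 1.92% in ctrl, a difference within the spread of the libraries (exact permutation p = 0.8, two-sided).

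Gpi1 converts glucose 6-phosphate to fructose 6-phosphate. It had 439.7, 449 and 426 CPM in the caNrf2 libraries, against 238, 270.1 and 264 CPM in the ctrl libraries. The groups were widely apart, and Gpi1 rose 1.7-fold (log2 fold change 0.77 ± 0.08 SE, edgeR adjusted p = 0.00035).

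Phosphofructokinase commits the sugar to glycolysis, and its 3 subunit genes did not move together. Pfkl, the liver-type subunit, had 109.5, 113 and 102 CPM in the caNrf2 libraries, against 68.9, 91.1 and 75.3 CPM in the ctrl libraries. Pfkl rose 1.38-fold with no overlap of the groups (edgeR adjusted p = 0.016), but the call was lost without ctrl library 1 (adjusted p = 0.055), ctrl library 3 (0.062) or caNrf2 library 2 (0.061). Pfkm, the muscle-type subunit, had 33.7, 30.4 and 31.2 CPM in the caNrf2 libraries, against 26, 28.3 and 28.1 CPM in the ctrl libraries. Pfkp, the platelet-type subunit, had 34.2, 37.3 and 39.6 CPM in the caNrf2 libraries, against 40.3, 45.7 and 41.8 CPM in the ctrl libraries. The groups of Pfkm and of Pfkp did not overlap, with Pfkm above and Pfkp below ctrl, but neither passed the test (edgeR adjusted p = 0.089 and 0.13). In TPM, the share of Pfkl was 56, 58.5 and 54% in the caNrf2 libraries, against 43.7, 51.1 and 47.3% in the ctrl libraries. This share was 8.76 percentage points larger in caNrf2, with no overlap, and the exact permutation test gave p = 0.1, the smallest that 3 against 3 libraries allow. Pfkp made up 24.1 ± 1.82% in caNrf2 and 32.4 ± 2.6% in ctrl.

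The bifunctional PFKFB enzymes make and remove fructose 2,6-bisphosphate, the activator of phosphofructokinase. Pfkfb4 had 24.7, 27.3 and 23.7 CPM in the caNrf2 libraries, against 15.1, 16.2 and 15.1 CPM in the ctrl libraries. It rose 1.63-fold with a wide gap between the groups (log2 fold change 0.71 ± 0.09 SE, edgeR adjusted p = 0.00065). Pfkfb3, the form with the strongest kinase activity, had 25, 26.7 and 28.6 CPM in the caNrf2 libraries, against 20.6, 20.2 and 21.4 CPM in the ctrl libraries. It rose 1.29-fold (edgeR adjusted p = 0.012). That call was lost without ctrl library 2 (adjusted p = 0.054), without caNrf2 library 3 (0.07), or with an offset for transcript length (0.054). Pfkfb1 averaged 2.69 ± 0.281 CPM in caNrf2 and 3.16 ± 0.349 CPM in ctrl, and Pfkfb2 averaged 17.8 ± 1.03 CPM in caNrf2 and 19.6 ± 1.04 CPM in ctrl (SD, n = 3 each). Neither passed the test. Pfkfb4 had the largest mean share of the family's TPM in caNrf2, with 34 ± 3.3% in caNrf2 and 24.5 ± 1.26% in ctrl. In caNrf2 library 3 these forms were nearly level, with 30.2% for Pfkfb4, 30% for Pfkfb3 and 29.9% for Pfkfb2. Pfkfb2 had the largest share in ctrl, with 28.1 ± 1.55% in caNrf2 and 36 ± 2.53% in ctrl. The share of Pfkfb2 did not overlap between the groups (difference -7.97 percentage points, exact permutation p = 0.1, the smallest possible).

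**Figure D2:**
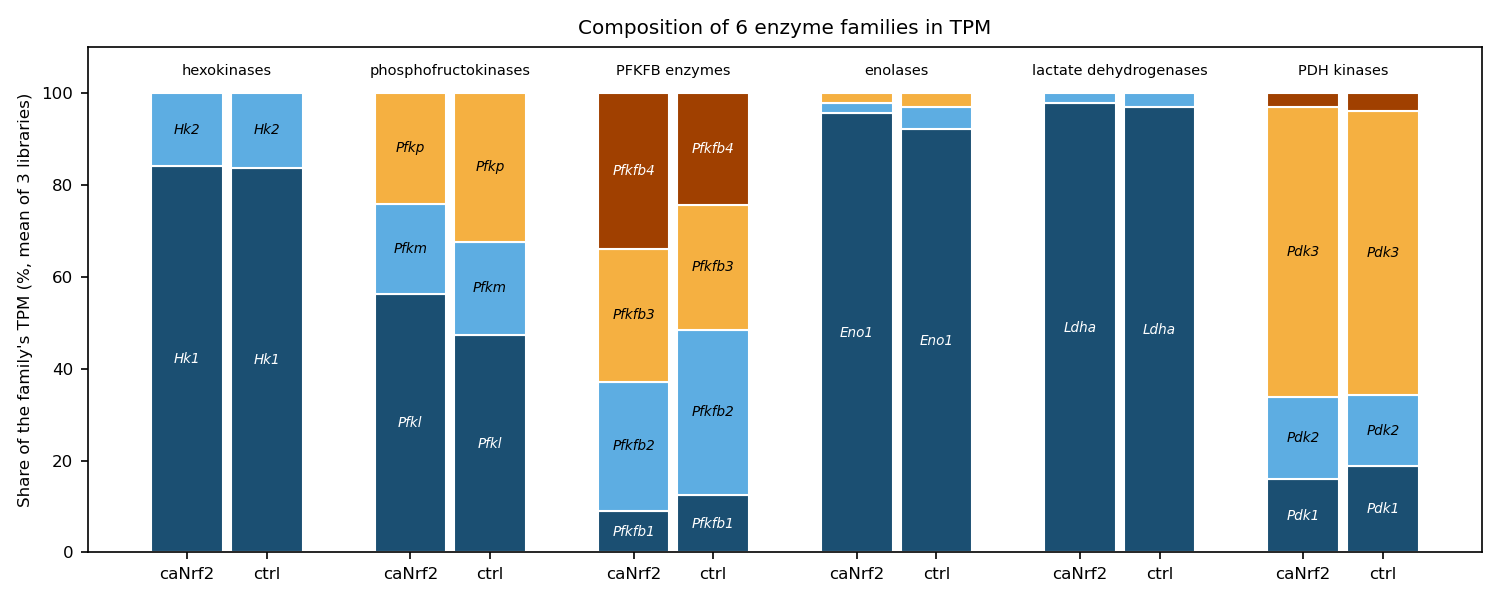
Share of TPM (%) held by each gene of an enzyme family, as the mean of 3 libraries, with the caNrf2 bar left of the ctrl bar in each family. Pfkl took 56.2% of phosphofructokinase TPM in caNrf2 and 47.4% in ctrl, and the hexokinase bars were nearly level. Eno1 took 95.7% of the TPM of Eno1, Eno2 and Eno3 in caNrf2 and 92.1% in ctrl, with Eno1b left out.

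The enzymes that cleave and interconvert the 3-carbon sugars were led by Aldoa. Aldoa, the aldolase of muscle and most dividing cells at chr7:126795234-126800751 on the minus strand, had 937, 958 and 858 CPM in the caNrf2 libraries, against 476, 644 and 551 CPM in the ctrl libraries. It rose 1.65-fold with no overlap (log2 fold change 0.72 ± 0.12 SE, edgeR adjusted p = 0.0031). Aldoc, the aldolase best known from brain, had 1.52, 1.22 and 1.38 CPM in the caNrf2 libraries, against 2.59, 2.99 and 3.83 CPM in the ctrl libraries. Aldoc fell to 0.438 times its ctrl level (log2 fold change -1.19 ± 0.21 SE, edgeR adjusted p = 0.0044), at a level so low that it held only 0.137% of aldolase TPM in caNrf2 and 0.471% in ctrl. Tpi1, which interconverts the products of aldolase, had 261, 254 and 249.6 CPM in the caNrf2 libraries, against 195, 235 and 218 CPM in the ctrl libraries. The groups of Tpi1 did not overlap, but the gene did not pass the test (1.18-fold, edgeR adjusted p = 0.094). Its fold difference was the smallest among the abundant enzymes between Gpi1 and Pkm.

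The major gene of each of the 5 steps from glyceraldehyde 3-phosphate to pyruvate rose. Gapdh, the NADH-producing step and a common reference gene in expression assays, had 1518, 1514 and 1391 CPM in the caNrf2 libraries, against 879, 1084 and 910.5 CPM in the ctrl libraries. It rose 1.54-fold with no overlap (log2 fold change 0.62 ± 0.10 SE, edgeR adjusted p = 0.0032). Pgk1, the first ATP-producing step, had 506, 563 and 490.3 CPM in the caNrf2 libraries, against 325, 362 and 299 CPM in the ctrl libraries. Pgk1 rose 1.58-fold, and its lowest caNrf2 library lay well above its highest ctrl library (edgeR adjusted p = 0.0021). Pgam1, the mutase that moves the phosphate group, had 451, 437 and 399 CPM in the caNrf2 libraries, against 289.7, 321 and 242 CPM in the ctrl libraries. It rose 1.51-fold (edgeR adjusted p = 0.0067). Reads of Pgam1 can be shared with a processed copy, Pgam1-ps2. Added together, these 2 averaged 463 ± 25.7 CPM in caNrf2 and 306 ± 41 CPM in ctrl (SD, n = 3 each), a ratio of 1.51.

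Eno1, the main enolase, had 998, 1088 and 933 CPM in the caNrf2 libraries, against 594, 702 and 530.3 CPM in the ctrl libraries. It rose 1.65-fold with no overlap (log2 fold change 0.72 ± 0.12 SE, edgeR adjusted p = 0.003). The near-identical copy Eno1b averaged 246 ± 24.7 CPM in caNrf2 and 161 ± 11.7 CPM in ctrl, and the split of reads between Eno1 and Eno1b is uncertain. Their sum averaged 1252 ± 101 CPM in caNrf2 and 769.8 ± 96.9 CPM in ctrl (SD, n = 3 each), a ratio of 1.63. Eno2, the enolase best known from neurons, had 22.4, 19.6 and 24.2 CPM in the caNrf2 libraries, against 27.3, 30.1 and 34.4 CPM in the ctrl libraries. Eno2 fell to 0.721 times its ctrl level (edgeR adjusted p = 0.018), and this call was lost without ctrl library 3 (adjusted p = 0.067) or caNrf2 library 2 (0.059). Eno3, the muscle enolase, had 16.4, 16.8 and 15.2 CPM in the caNrf2 libraries, against 13.1, 16.7 and 12 CPM in the ctrl libraries, and its groups overlapped (edgeR adjusted p = 0.28). Of the summed TPM of Eno1, Eno2 and Eno3, Eno1 held 95.7 ± 0.378% in caNrf2 and 92.1 ± 1.13% in ctrl, without overlap (exact permutation p = 0.1, the smallest possible). This total leaves out Eno1b, which had 263 ± 26.8 TPM in caNrf2 and 180 ± 12.6 TPM in ctrl, more than Eno2 or Eno3. Of 8 neuron markers, 4 had enough counts to be tested, 1 was called higher and 1 lower, and their summed level was 23 to 26.2 CPM in caNrf2 and 25.2 to 35.2 CPM in ctrl. Map2 fell with Eno2, to 3.01 ± 0.344 CPM in caNrf2, against 9.48 ± 1.24 CPM in ctrl (SD, n = 3 each). Stmn2 rose, with 3.13 ± 0.553 CPM in caNrf2 and 1.17 ± 0.323 CPM in ctrl, and Tubb3 averaged 17.9 ± 1.74 CPM in caNrf2 and 17.3 ± 6.93 CPM in ctrl. Syt1 averaged 0.495 ± 0.217 CPM in caNrf2 and 0.929 ± 0.512 CPM in ctrl and was uncalled (log2 fold change -0.87 ± 0.45 SE, edgeR adjusted p = 0.20). The 4 untested markers, Rbfox3, Snap25, Elavl3 and Elavl4, were near 0 in both groups, with means of up to 0.153 CPM. The part of neuronal RNA in the change of Eno2 and Aldoc was not tested.

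Pyruvate kinase makes pyruvate and ATP in the last step of glycolysis, and Pkm was the most abundant of the 32 genes by CPM. It lies at chr9:59656368-59679375 on the plus strand (GRCm38). Pkm had 2274, 2344 and 2086 CPM in the caNrf2 libraries, against 1143, 1377 and 1147 CPM in the ctrl libraries. Every caNrf2 library was far above every ctrl library, and Pkm rose 1.83-fold (log2 fold change 0.87 ± 0.10 SE, edgeR adjusted p = 0.00052). The gene has a pair of mutually exclusive exons of 167 bases each. The M1 exon is used in muscle, heart and brain, and the M2 exon in proliferating cells. M2 enzyme switches between active and less active forms, and its exon encodes the part that differs. The exons are shown because the 2 annotated transcripts with them were counted separately. Capitals mark the 64 bases that differ between the exons when they are set side by side from their first base, and the other 103 bases, 61.7%, are shared. The M1 exon is at chr9:59675029-59675195 and the M2 exon at chr9:59675568-59675734, both on the plus strand (GENCODE M21, GRCm38).
Pkm M1 exon: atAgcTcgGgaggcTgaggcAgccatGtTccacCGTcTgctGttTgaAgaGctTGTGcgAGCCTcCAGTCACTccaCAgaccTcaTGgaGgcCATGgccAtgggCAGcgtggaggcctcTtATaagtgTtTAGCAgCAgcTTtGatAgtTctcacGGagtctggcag
Pkm M2 exon: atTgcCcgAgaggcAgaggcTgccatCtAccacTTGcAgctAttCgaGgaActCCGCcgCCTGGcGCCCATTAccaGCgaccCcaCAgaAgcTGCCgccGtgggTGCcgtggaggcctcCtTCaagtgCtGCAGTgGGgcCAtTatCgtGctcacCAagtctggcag

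Both Pkm transcripts were higher in caNrf2. The M2 transcript had 1399.7, 1534 and 1353 TPM in the caNrf2 libraries, against 794, 946 and 802 TPM in the ctrl libraries, a ratio of means of 1.69. The M1 transcript had 227, 306 and 274 TPM in the caNrf2 libraries, against 106, 145 and 109 TPM in the ctrl libraries, a ratio of means of 2.24. M2 was thus the main form in all 6 libraries. The M1 share of Pkm TPM was 14, 16.6 and 16.8% in the caNrf2 libraries, against 11.8, 13.3 and 12% in the ctrl libraries. The share was 3.47 percentage points larger in caNrf2 and the groups did not overlap, with an exact permutation p of 0.1, the smallest that 3 against 3 libraries allow. In the edgeR test of transcript usage over all genes, Pkm did not pass (adjusted p = 0.41). None of the 22 listed genes with enough transcripts passed this test, where 1.05% of all 8769 genes did and 181 did with the replicate number as a block. The smallest adjusted p among them was 0.16, for Gpi1. The division of counts between the transcripts rests on the reads that touch the printed exons. Muscle markers, which are also higher in caNrf2, were given above, and their part in the M1 share was not tested.

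**Figure D3:**
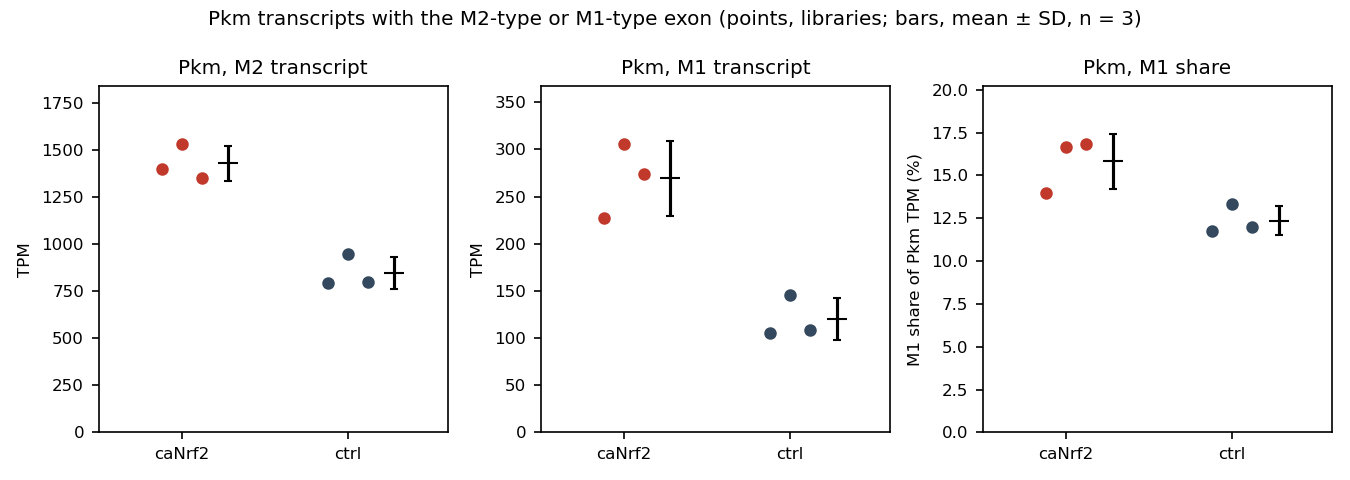
TPM of the Pkm transcript with the M2 exon, TPM of the one with the M1 exon, and the M1 share of Pkm TPM (%), with points for libraries and bars for mean ± SD (n = 3 each), caNrf2 left of ctrl. Both transcripts were higher in caNrf2, and the M1 share was 15.8 ± 1.6% in caNrf2 and 12.4 ± 0.849% in ctrl.

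**Figure D4:**
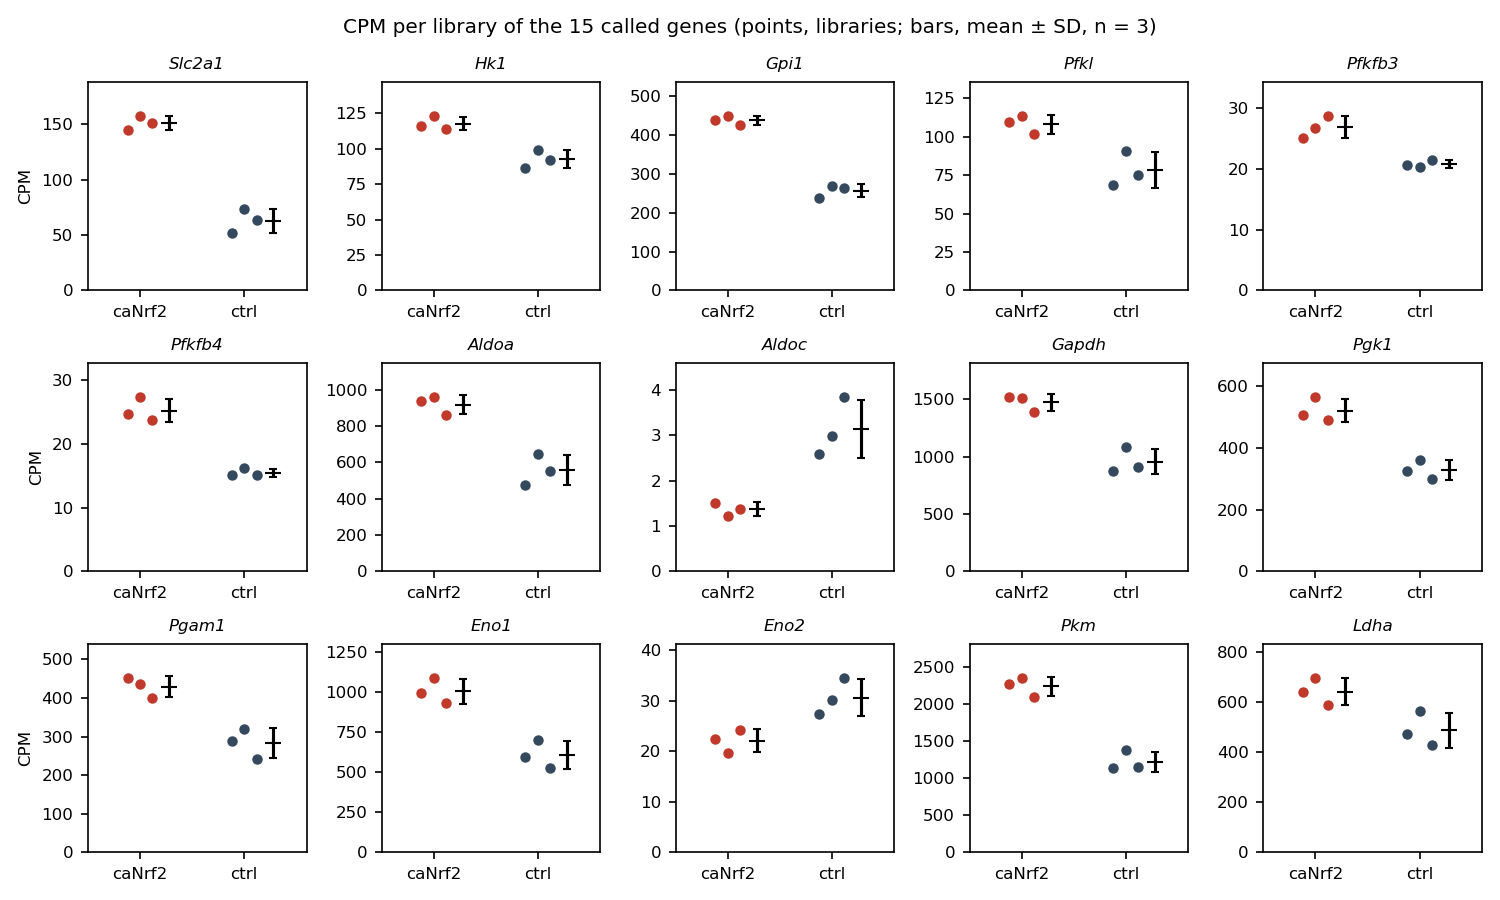
CPM per library of the 15 genes that passed the test, with points for libraries and bars for mean ± SD (n = 3 each), caNrf2 left of ctrl. The groups are apart in each panel, with caNrf2 higher in 13 panels and lower for Aldoc and Eno2.

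Of the genes of lactate production and export, Ldha alone passed the test. Ldha, the main lactate dehydrogenase at chr7:46841475-46855627 on the plus strand, had 642, 697 and 591 CPM in the caNrf2 libraries, against 472, 566 and 429 CPM in the ctrl libraries. The lowest caNrf2 library lay close above the highest ctrl library, and Ldha rose 1.31-fold (log2 fold change 0.39 ± 0.12 SE, edgeR adjusted p = 0.044). It had the weakest call of the 13, and the call was lost without any 1 of 5 libraries. The adjusted p was 0.12 without ctrl library 1, 0.15 without ctrl library 3, 0.083 without caNrf2 library 1, 0.14 without caNrf2 library 2 and 0.063 without caNrf2 library 3. It was also lost with upper-quartile scaling (adjusted p = 0.054). Ldhb, the form that favours pyruvate, averaged 11.2 ± 0.881 CPM in caNrf2 and 12.1 ± 1.65 CPM in ctrl (SD, n = 3 each), with a log2 fold change of -0.11.

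Neither lactate transporter passed the test. Slc16a1 encodes MCT1 and averaged 47.4 ± 5.52 CPM in caNrf2 and 51.6 ± 8.64 CPM in ctrl. Slc16a3 encodes MCT4, the exporter of highly glycolytic cells, and had 7.36, 11.6 and 9.1 CPM in the caNrf2 libraries, against 5.27, 11.2 and 6.35 CPM in the ctrl libraries. In both groups the library numbered 2 was the highest for Slc16a3, as it also was for Slc2a1, Pgk1, Eno1, Pkm and Ldha. The groups of Slc16a3 overlapped (log2 fold change 0.29 ± 0.28 SE, edgeR adjusted p = 0.49). The log2 fold change of Slc16a3 was 0.07 without ctrl library 1, 0.69 without ctrl library 2, 0.17 without ctrl library 3 and 0.10 without caNrf2 library 2, and it was uncalled in each case.

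No gene at the entry of pyruvate into mitochondrial oxidation passed the test. Pdha1, the catalytic E1 alpha subunit of pyruvate dehydrogenase, had 266, 265 and 259.9 CPM in the caNrf2 libraries, against 292, 252 and 251 CPM in the ctrl libraries. Its groups overlapped, and its log2 fold change was -0.01 ± 0.09 SE. Pdhb, the E1 beta subunit, averaged 49.3 ± 4.46 CPM in caNrf2 and 49 ± 0.821 CPM in ctrl, with a log2 fold change of 0.01 ± 0.08 SE. The 4 kinases that switch the complex off were also uncalled. Pdk3, which held 63.2 ± 1.29% of the kinases' TPM in caNrf2 and 61.9 ± 1.35% in ctrl, averaged 45.7 ± 2.26 CPM in caNrf2 and 44.3 ± 3.43 CPM in ctrl. Pdk1, the kinase induced by hypoxia, averaged 13.7 ± 0.842 CPM in caNrf2 and 15.2 ± 1.11 CPM in ctrl. Pdk2 averaged 13.4 ± 0.358 CPM in caNrf2 and 11.6 ± 0.664 CPM in ctrl, and its groups did not overlap (edgeR adjusted p = 0.14). Pdk4, the kinase of fasting and fat oxidation, averaged 3.65 ± 0.436 CPM in caNrf2 and 4.81 ± 1.07 CPM in ctrl, with a log2 fold change of -0.39 ± 0.19 SE (edgeR adjusted p = 0.18).

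Levels per length were set side by side in ratios that were chosen after the values were seen and have no test. The ratio of Ldha to Pdha1 in TPM was 4.44, 4.75 and 4.15 in the caNrf2 libraries, against 2.92, 4.06 and 3.11 in the ctrl libraries. The ratio of Slc2a1 to Hk1 was 1.86 ± 0.0509 in caNrf2 and 0.964 ± 0.114 in ctrl, and that of Ldha to Pkm was 0.454 ± 0.0129 in caNrf2 and 0.631 ± 0.0343 in ctrl (SD, n = 3 each). Each of these ratios was apart between the groups, that of Ldha to Pdha1 narrowly, with 4.15 in caNrf2 library 3 and 4.06 in ctrl library 2. Of single tested genes, 42.1% were also separated, and how often ratios separate was not tested.

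The neighbouring genes of the pathway were taken from a list of 51 genes that holds other glucose transporters, rare isoenzymes, gluconeogenic enzymes and the partners of pyruvate transport and oxidation. Of these, 38 were tested, 4 rose, 5 fell and 29 did not pass, with a median log2 fold change of 0.02. These counts were near the 12.5% higher and 9.03% lower of all tested genes. Pcx, the mitochondrial enzyme that carboxylates pyruvate to oxaloacetate, had 184, 185 and 164 CPM in the caNrf2 libraries, against 48.7, 50.8 and 43.4 CPM in the ctrl libraries. The groups were far apart, and Pcx rose 3.73-fold (log2 fold change 1.90 ± 0.09 SE, edgeR adjusted p = 2e-06), more than any of the 32 genes. The ratio of Pcx to Pdha1 in TPM was 0.448 ± 0.0245 in caNrf2 and 0.119 ± 0.0123 in ctrl (SD, n = 3 each). Pck2, the mitochondrial enzyme that turns oxaloacetate into phosphoenolpyruvate, had 113, 86.2 and 117 CPM in the caNrf2 libraries, against 188, 214 and 229 CPM in the ctrl libraries. It fell to 0.501 times its ctrl level (log2 fold change -0.998 ± 0.13 SE, edgeR adjusted p = 0.00088).

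Txnip, an arrestin that lowers glucose uptake by taking GLUT1 off the cell surface, moved opposite to Slc2a1. It had 34.4, 29.6 and 35.2 CPM in the caNrf2 libraries, against 68.3, 51.8 and 70.4 CPM in the ctrl libraries. Txnip fell to 0.521 times its ctrl level with no overlap (log2 fold change -0.94 ± 0.13 SE, edgeR adjusted p = 0.001). Hk3, a hexokinase of leukocytes, had 3.49, 4.22 and 3.87 CPM in the caNrf2 libraries, against 0.338, 1.05 and 1.12 CPM in the ctrl libraries, and rose 4.6-fold (edgeR adjusted p = 0.0025). The 18 leukocyte markers had a median log2 fold change of 1.92, beside 2.20 for Hk3, and their part in that change was not tested. Tigar, which removes fructose 2,6-bisphosphate, averaged 17.1 ± 0.817 CPM in caNrf2 and 13.7 ± 0.163 CPM in ctrl (1.25-fold, edgeR adjusted p = 0.024). The inositol transporter gene Slc2a13 also rose, 1.25-fold (adjusted p = 0.044), and the other called losses were Gpt2 at 0.734 times, Got1 at 0.798 times and Slc2a6 at 0.62 times their ctrl levels. Gpt2 and Got1 are transaminases, and Slc2a6 is a lysosomal transporter of the glucose transporter family.

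Several of these smaller calls rested on single libraries or settings. Tigar was lost without ctrl library 2 (adjusted p = 0.066), ctrl library 3 (0.085), caNrf2 library 2 (0.094) or caNrf2 library 3 (0.099). Got1 was lost without ctrl library 2 (0.057), ctrl library 3 (0.083) or caNrf2 library 2 (0.069), and Slc2a6 without ctrl library 2 (0.058), ctrl library 3 (0.06) or caNrf2 library 2 (0.0503). Slc2a13 was lost without any library other than caNrf2 library 1 (adjusted p up to 0.18, without caNrf2 library 3), and also with upper-quartile scaling (0.061), scaling by library totals (0.052) or no filter (0.052). Gpt2 was lost with an offset for transcript length (0.26). Bsg, the chaperone of the lactate transporters and the most abundant uncalled gene of the list, averaged 371 ± 19 CPM in caNrf2 and 322 ± 25.6 CPM in ctrl (edgeR adjusted p = 0.15). The groups of Bsg did not overlap, with caNrf2 above ctrl. Other partners of pyruvate entry, chosen after their values were seen, did not pass. Their log2 fold changes were -0.10 for Mpc1 and -0.25 for Mpc2, the mitochondrial pyruvate carrier, and 0.01 for Dlat, -0.05 for Dld and 0.11 for Pdhx, further subunits of the pyruvate dehydrogenase complex. For the phosphatases that switch the complex on and their regulatory subunit, they were -0.21 for Pdp1, -0.29 for Pdp2 and -0.18 for Pdpr. Under the 17 alternatives given below, the value lay between -0.21 and -0.02 for Mpc1 and between -0.46 and -0.15 for Mpc2, uncalled in each. The groups of Mpc2 overlapped in CPM but not in TPM, with 45.9 ± 2.92 TPM in caNrf2 and 66 ± 11.9 TPM in ctrl (SD, n = 3 each).

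Many glycolytic genes are known targets of the hypoxia factor HIF1 and of Myc, so a list of 28 regulators and hypoxia response genes was read beside them. Of these, 25 were tested, 2 rose, 3 fell and 20 did not pass, with a median log2 fold change of -0.0046. The called share was near that of all tested genes, of which 21.5% were called. Egln3, a HIF prolyl hydroxylase that hypoxia induces, had 17.6, 17.5 and 14.6 CPM in the caNrf2 libraries, against 7.39, 4.96 and 5.78 CPM in the ctrl libraries, and rose 2.75-fold (edgeR adjusted p = 0.0003). Adm, which encodes the vasodilator adrenomedullin, had 272, 273 and 239 CPM in the caNrf2 libraries, against 176, 165 and 142 CPM in the ctrl libraries, and rose 1.63-fold (edgeR adjusted p = 0.0018). The groups of both genes were apart. P4ha2, a collagen prolyl hydroxylase subunit, fell to 0.747 times its ctrl level (edgeR adjusted p = 0.0067). Ero1l, an oxidase of the endoplasmic reticulum, fell to 0.718 times (adjusted p = 0.01), and Ndufa4l2, at under 1 CPM, to 0.467 times (adjusted p = 0.027). The call of Ndufa4l2 was lost with DESeq2 (adjusted p = 0.082) and without any library other than ctrl library 1 (0.069 to 0.099). Hif1a itself averaged 235 ± 22.3 CPM in caNrf2 and 273 ± 5.55 CPM in ctrl and did not pass (edgeR adjusted p = 0.13). The groups of Hif1a did not overlap, with caNrf2 below ctrl. Myc had 93.8, 100.1 and 94.7 CPM in the caNrf2 libraries, against 57.1, 81.8 and 80.8 CPM in the ctrl libraries. The groups of Myc did not overlap either, with caNrf2 above ctrl and an edgeR adjusted p of 0.063. Myc was called with the replicate number as a block (0.041), with DESeq2 (0.026) and without the filter on low counts (0.026), which made 3 regulator genes called higher instead of 2.

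**Figure D5:**
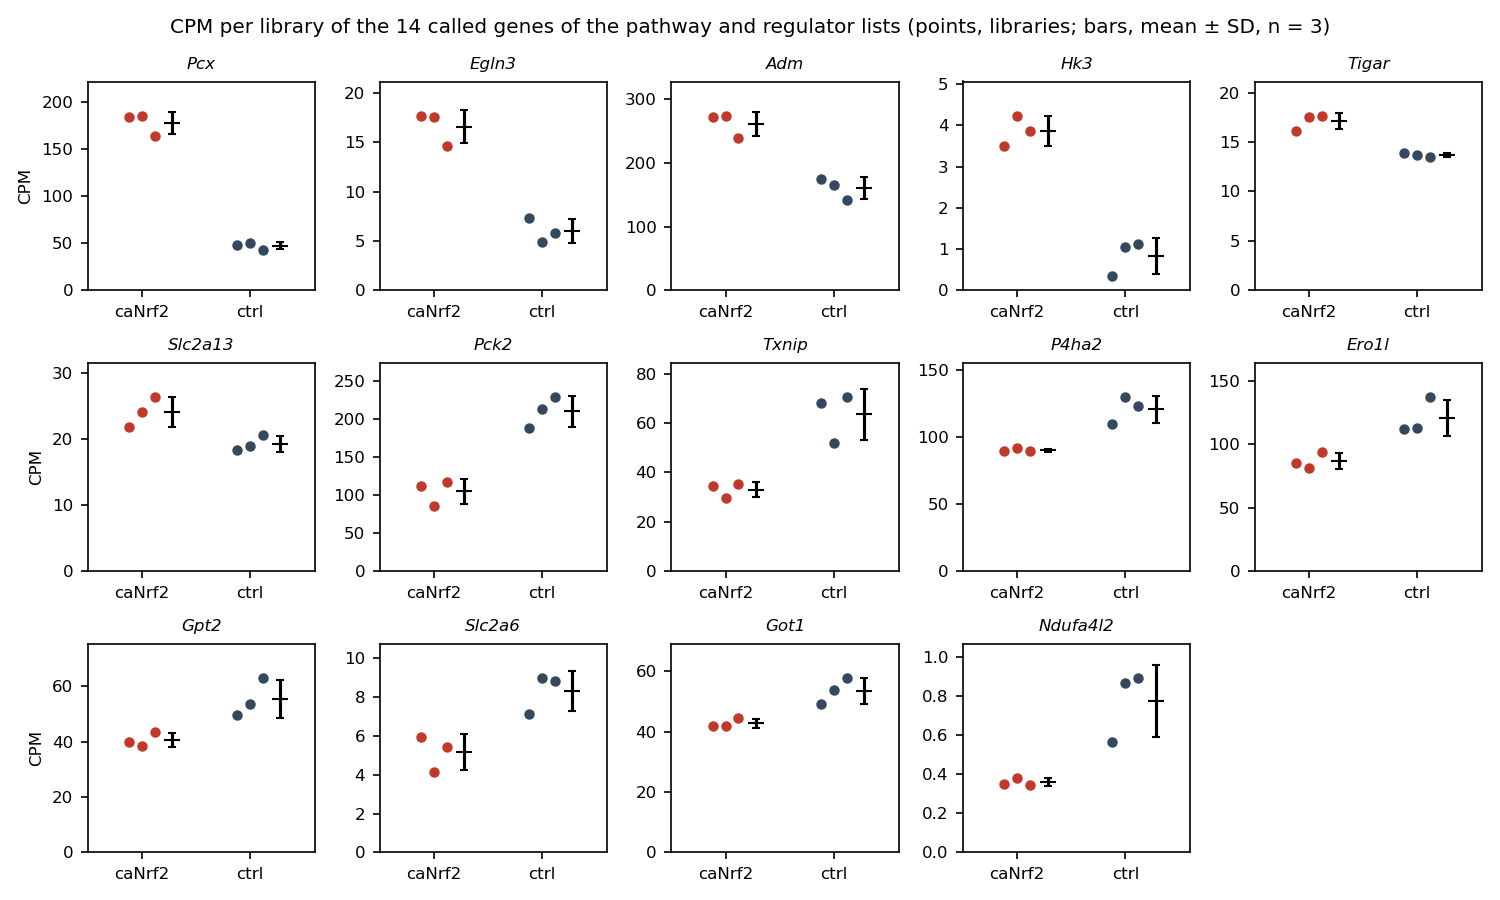
CPM per library of the 14 called genes of the pathway list and of the regulator list, with points for libraries and bars for mean ± SD (n = 3 each), caNrf2 left of ctrl. Pcx, Egln3, Adm and Hk3 were clearly higher in caNrf2, and Pck2 and Txnip were clearly lower.

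Promoters of 31 of the 32 genes were found in a RefSeq table (GRCm38.p6) that gives 250 bases before and 50 after each start site, 50 promoters in all. Slc2a3 was not matched. The core of the antioxidant response element was searched as TGACNNNGC on both strands, and the core of the hypoxia response element as ACGTG on both strands. The E-box CACGTG, bound by Myc, contains ACGTG on either strand. TGACNNNGC occurred in 4 of the 50 promoters, 8%, against 14% of the 14237 promoters of all tested genes in the table, and belonged to Aldoa, Hk1, Pdhb and Slc16a1. ACGTG occurred in 22 of the 50, 44%, against 24.7% of the promoters of tested genes. By gene, ACGTG was present for 9 of the 13 that rose and for 9 of the 18 others with a promoter. Of all 27025 genes in the table, tested or not, 21.8% had it. A gene with several promoters has more chances to match, and overlapping promoters of Aldoa hold the same ACGTG match. CACGTG occurred in 6 of the 50, 12%, against 9.71%. These are letter matches in short windows, and binding was not measured.

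A promoter of each of 3 genes is shown. Slc2a1 had the largest change, Aldoa is an abundant gene that rose and has a promoter with both cores, and the Ldha promoter has the most copies of ACGTG among those printed. Aldoa and Ldha have other promoters as well, and which start site the cells used was not tested. Capitals mark each match to TGACNNNGC or ACGTG on either strand, and each sequence is written 5′ to 3′ on the strand of its gene. The Slc2a1 promoter is chr4:119108495-119108794 on the plus strand and holds 1 ACGTG. The Aldoa promoter shown is chr7:126799205-126799504 on the minus strand, with TGACNNNGC on the opposite strand at position -220 from the start and 1 ACGTG. The other Aldoa promoters hold no TGACNNNGC. The Ldha promoter shown is chr7:46845554-46845853 on the plus strand and holds 5 matches to ACGTG, 4 of which come from 2 copies of the palindrome CACGTG. The other Ldha promoter, chr7:46846832-46847131, holds neither core.
Slc2a1 promoter: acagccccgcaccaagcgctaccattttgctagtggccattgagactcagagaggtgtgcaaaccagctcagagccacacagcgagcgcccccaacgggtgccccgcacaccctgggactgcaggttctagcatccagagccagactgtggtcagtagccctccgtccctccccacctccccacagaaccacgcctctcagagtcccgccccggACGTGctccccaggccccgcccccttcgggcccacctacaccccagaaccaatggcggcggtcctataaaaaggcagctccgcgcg
Aldoa promoter: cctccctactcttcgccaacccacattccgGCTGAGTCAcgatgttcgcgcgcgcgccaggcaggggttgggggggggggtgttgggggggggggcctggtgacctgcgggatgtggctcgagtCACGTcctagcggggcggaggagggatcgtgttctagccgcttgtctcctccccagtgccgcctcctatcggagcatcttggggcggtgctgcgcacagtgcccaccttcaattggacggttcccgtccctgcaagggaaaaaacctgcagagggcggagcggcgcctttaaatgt
Ldha promoter: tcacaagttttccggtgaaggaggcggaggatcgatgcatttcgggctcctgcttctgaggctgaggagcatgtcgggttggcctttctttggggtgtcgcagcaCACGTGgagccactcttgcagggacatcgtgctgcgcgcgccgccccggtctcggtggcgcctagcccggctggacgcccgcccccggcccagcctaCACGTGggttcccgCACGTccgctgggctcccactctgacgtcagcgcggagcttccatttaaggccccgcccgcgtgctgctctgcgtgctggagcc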

How the data were processed

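RNA of 3 caNrf2 and 3 ctrl cultures was sequenced. Each deposited table lists, per transcript, maximum likelihood expected counts, posterior mean counts, TPM and FPKM values made by the authors. Expected counts were estimated with RSEM 1.2.21 against GRCm38 after CASAVA 1.8, per the submitters' processing notes, and the aligner and strandedness were not given in the sources used here. The deposited expected counts of the transcripts of a gene were added up and rounded. Deposited TPM values were summed per gene for levels and shares, and the authors' FPKM values were not used.

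Genes passed edgeR's filterByExpr (minimum count 10), were scaled by TMM and tested with the quasi-likelihood F test (edgeR 4.0.16 in R 4.3.3), with a Benjamini-Hochberg adjusted p under 0.05 as the threshold. Transcript usage was tested with diffSpliceDGE on transcripts with a total of at least 30 counts. The planned wording named both glmFit and an F test, and the F test needs the quasi-likelihood fit, which was used. The scripts were tested on simulated data. DESeq2 1.42.0, limma-voom 3.58.1, other scalings and filters, the posterior mean counts and leaving out each library were tried as alternatives. Shares of TPM were compared by exact permutation, whose smallest p is 0.1. Exact permutation p values over the 10 families gave no Benjamini-Hochberg adjusted value under 0.167.

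Replicate numbers come from the sample titles. Deviations from the group means correlated by 0.226, 0.314 and 0.176 between the same numbers, each above 0.1. The fit with the number as a block was therefore run as an alternative. The edgeR values given beside each gene come from the unblocked fit, unless another fit is named. The exact permutation tests did not use the numbers either. What a shared number marks was not given. The 32 genes and all lists were chosen with earlier results of these data known. All 32 genes were reported, with, from each other list, up to 6 called genes in each direction by smallest adjusted p and the most abundant uncalled gene. Myc, Mpc1, Mpc2, Dlat, Dld, Pdhx, Pdp1, Pdp2 and Pdpr were added after their values were seen, as were the marker genes named. Sequences were read from GENCODE M21 and RefSeq tables of GRCm38. Markers of Schwann cells and melanocytes (2 of 7 tested called higher), keratinocytes (1 of 8), endothelium (1 of 6), adipocytes (1 of 5, lower) and erythroid cells (none tested) were also read. The summed level of the keratinocyte markers was 238 to 402 CPM in caNrf2 and 174 to 286 CPM in ctrl, with overlap. The called keratinocyte marker was Krt14, which rose 1.66-fold.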

Additional observations from a re-analysis of the deposited data

How the results depend on the processing

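The fold changes of the 32 genes, of the called genes of the other lists and of Bsg, Hif1a, Myc, Mpc1, Mpc2, Dlat, Dld and Pdhx were recomputed under 17 alternatives, except that Ndufa4l2 did not pass the stricter filter and has 16. Of the 15 called glycolytic genes, 10 kept their call under all of them and 5 lost it under at least 1, as given beside each gene, and none of the 17 uncalled genes was called under any. Leaving out 1 library, the number called higher lay between 10 and 12 and the number called lower between 1 (without ctrl library 3 or caNrf2 library 2) and 2, and the median log2 fold change lay between 0.16 and 0.33, highest without ctrl library 2. Over all genes the number called lower lay between 823 (without ctrl library 3; 864 without caNrf2 library 2) and 1143. Called pathway genes numbered 2 (without caNrf2 library 3) to 4 higher and 3 (without ctrl library 2 or 3) to 5 lower, and called regulator genes 2 to 5 lower (5 without ctrl library 1). DESeq2 called 8 pathway genes higher. Transcript usage was called for 92 genes, for 181 with the replicate block and for 233 with a likelihood ratio test added after the data were seen. Myc was called with the block, with DESeq2 and with no filter, and the block changed no other call of the genes recomputed.

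Log2 fold changes near 0 changed sign. Upper-quartile scaling gave -0.0038 for Slc2a3, -0.029 for Pdhb and -0.027 for Dlat, and scaling by library totals gave -0.0087 for Pdhb and -0.0063 for Dlat. Leaving out 1 library gave -0.15 to 0.17 for Slc2a3, -0.21 to 0.019 for Slc16a1, -0.022 to 0.079 for Pdk3, -0.050 to 0.054 for Pdha1, -0.067 to 0.054 for Pdhb and -0.031 to 0.030 for Dlat, and differences of -0.643 to 1.27 points for the share of Hk1 and -1.11 to 0.723 points for that of Pdha1. The cause of these changes was not tested. Upper-quartile scaling moved the median of all genes to -0.04. The spread between libraries leaves wide errors for Slc2a3 and Slc16a3, with SE of 0.24 and 0.28 on the log2 scale.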
